A study of Mus musculus with 6 samples.

Results

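Transforming growth factor beta (TGF-beta) signalling was followed here through 10 genes: the ligands Tgfb1, Tgfb2 and Tgfb3, the receptors Tgfbr1 and Tgfbr2, the signal transducers Smad2, Smad3, Smad4 and Smad7, and Thbs1, which encodes the latency-activating matrix protein thrombospondin-1. They were picked by gene symbol, and all 10 were measured, each by 1 probe set, among 22061 genes in all. The cells were MCT, an immortal mouse line with proximal tubular features that came from SJL kidney cortex, and no genetic modification is named in the labels. Subconfluent cultures were held overnight without serum and then given either 100 ng/mL of the TNF superfamily cytokine TWEAK or vehicle for 6 h. RNA of 3 control and 3 TWEAK cultures, described by the submitters as independent experiments, was hybridised to Affymetrix whole-transcript arrays. Values are log2 expression as the authors deposited it, and a difference is the TWEAK mean minus the control mean on that scale.

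TGF-beta ligands are secreted in a latent form that must be released before they can bind. The active ligand assembles a receptor complex in which the type II receptor (Tgfbr2) phosphorylates the type I receptor (Tgfbr1), and the type I receptor phosphorylates Smad2 and Smad3, which enter the nucleus together with Smad4. Smad7 is induced by the pathway and blocks it at the receptor. In the kidney TGF-beta is best known as a driver of fibrosis, of tubular cell growth arrest and of loss of epithelial character.

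After 6 h of TWEAK, 2 of the 10 genes had changed. Tgfb1 rose 1.54-fold and Thbs1 fell to a level 2.31-fold lower. The other ligands, both receptors and all SMADs measured here did not pass the test, with differences from -0.18 for Tgfbr1 to 0.21 for Smad7. Calls are those of limma with Benjamini-Hochberg adjustment over all 22061 genes at a threshold of 0.05. By that rule 3.00% of all genes were called, 1.28% higher and 1.71% lower. The median difference of the 10 genes was -0.06 (quartiles -0.12 and 0.07), beside 0.03 (quartiles -0.10 and 0.12) over all genes.

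**Figure D1:**
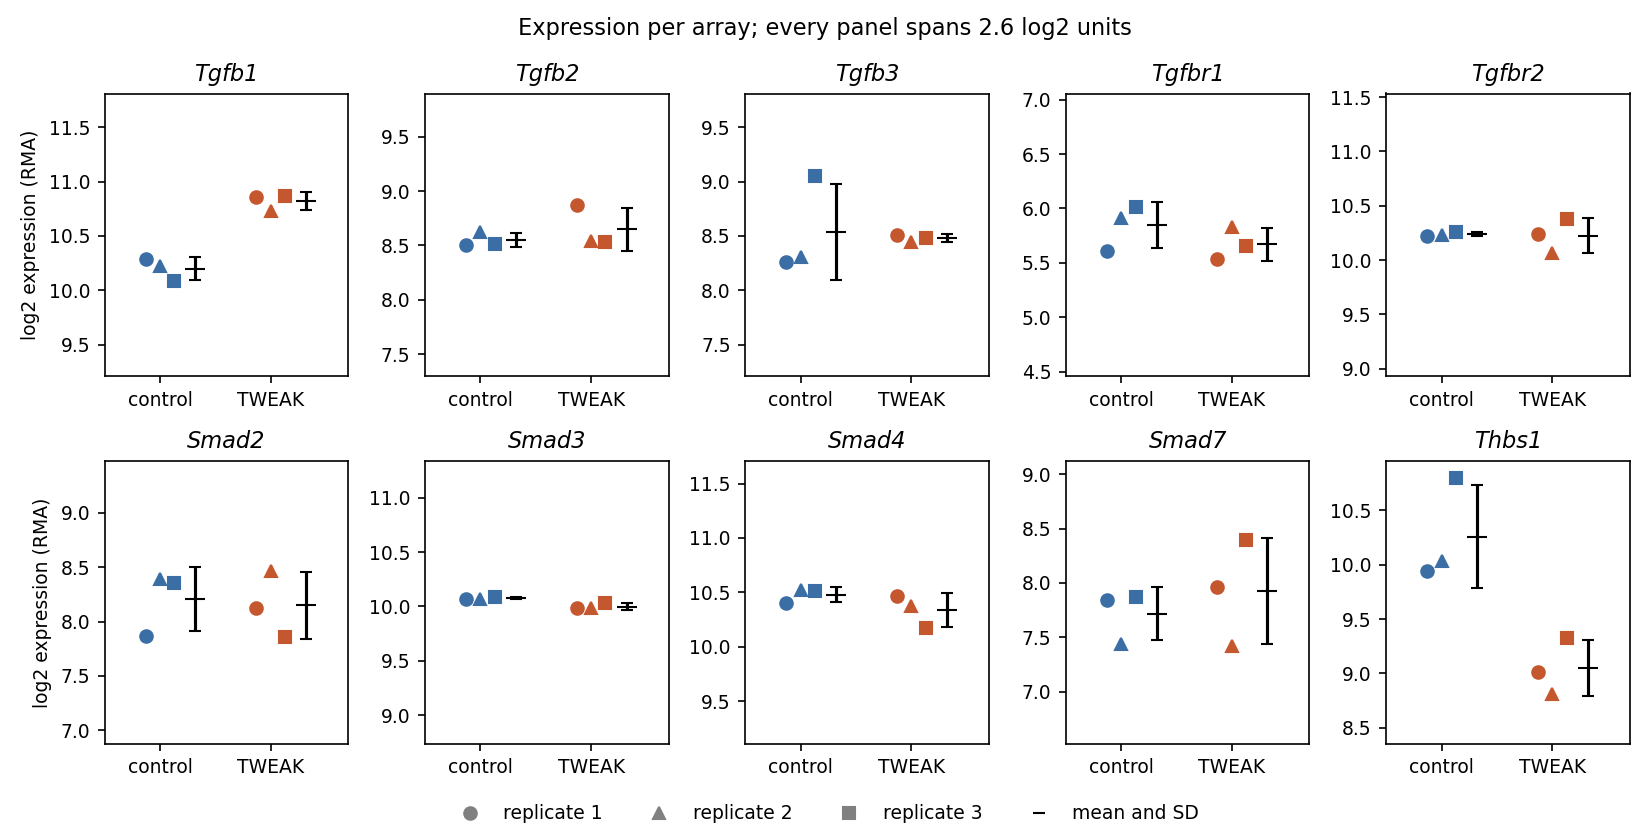
Log2 expression (RMA) of the 10 genes in each array, with control arrays in blue and TWEAK arrays in red, symbols for replicate numbers and black bars for mean and SD of 3 arrays. The TWEAK arrays lie above all control arrays for Tgfb1 and below all of them for Thbs1, and control 3 stands high for Tgfb3 and Thbs1.

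Tgfb1 is the ligand most closely tied to renal fibrosis. Its values were 10.29, 10.22 and 10.08 in control 1, 2 and 3 and 10.86, 10.73 and 10.87 in TWEAK 1, 2 and 3. The lowest TWEAK array thus lay above the highest control array, and the SD was small in both groups, 0.11 and 0.08. Tgfb1 rose by 0.62 on the log2 scale (SE 0.09), 1.54-fold with a 95% interval of 1.33 to 1.78, at an adjusted p of 0.0259 in limma. Ordered from the largest positive difference down, Tgfb1 stood at position 231 of 22061 genes, and ordered by p at position 103. The authors' deposited table gives Tgfb1 a ratio of 1.54 and a false discovery rate of 0.0470, counted over all probe sets.

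The start-site windows of Tgfb1 and Tgfb2 are shown because Tgfb1 passed limma's test and Tgfb2 did not; a difference in response between them did not pass its own test, given with the ratios. They were taken from RefSeq (GRCm38.p6), run from 250 bases before to 50 bases after the annotated start and are written 5′ to 3′ on the strand of the gene. Tgfb1 lies on the plus strand at chr7:25686752-25687051 and Tgfb2 on the minus strand at chr1:186705940-186706239. Capitals mark matches on either strand to the GC box (GGGCGG, the core bound by SP family factors) or to the SMAD box (CAGACA).
Tgfb1: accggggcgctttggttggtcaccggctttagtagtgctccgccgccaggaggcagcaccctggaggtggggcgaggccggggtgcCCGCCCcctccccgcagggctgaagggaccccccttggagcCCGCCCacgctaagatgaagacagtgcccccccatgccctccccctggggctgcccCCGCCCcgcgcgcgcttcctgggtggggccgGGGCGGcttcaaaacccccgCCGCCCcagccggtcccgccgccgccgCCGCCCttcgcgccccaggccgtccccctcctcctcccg
Tgfb2: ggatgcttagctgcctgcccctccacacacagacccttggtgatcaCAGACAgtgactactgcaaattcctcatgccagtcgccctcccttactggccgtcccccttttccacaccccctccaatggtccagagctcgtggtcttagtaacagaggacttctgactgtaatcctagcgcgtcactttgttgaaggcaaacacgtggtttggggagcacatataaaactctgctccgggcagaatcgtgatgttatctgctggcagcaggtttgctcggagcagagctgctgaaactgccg

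The Tgfb1 window is 77.0% G or C and holds 6 GC boxes and 0 SMAD boxes, while the Tgfb2 window is 54.3% G or C and holds 0 GC boxes and 1 SMAD box. Over 32851 windows of the same length the median G or C content was 52.7%, and 35.7% of windows held a GC box and 21.0% a SMAD box. Neither window matched the AP-1 motif TGANTCA (7.81% of windows) or the 10-letter NF-kB consensus (4.51% of windows). No marked match overlaps another. Windows were at hand for 5 of the 10 genes. Smad3 and the upstream Tgfbr1 window held 2 GC boxes each, a second Tgfbr1 window held 0 GC boxes and 1 SMAD box, and Tgfbr2 held none of the 4 motifs. A match describes letters in the window, not binding, and no match says only that these letters are not in it.

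Tgfb2, an isoform needed for development of the heart and the urogenital tract, was at 8.51, 8.62 and 8.51 in the control arrays and at 8.88, 8.54 and 8.53 in the TWEAK arrays. Only TWEAK 1 stood above the controls, and the groups overlapped. The Tgfb2 difference was 0.10 (SE 0.11, limma adjusted p = 0.669), with an interval of 0.90-fold to 1.28-fold. Without TWEAK 1 the difference was -0.01.

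Tgfb3, the third isoform, which binds the same receptors, was at 8.26, 8.31 and 9.05 in the control arrays and at 8.51, 8.45 and 8.48 in the TWEAK arrays. The 3 TWEAK values lay between control 2 and control 3, so that the spread was in the control group (SD 0.44, larger than in 98.0% of genes, against a TWEAK SD of 0.03). The Tgfb3 difference was -0.06 (SE 0.19, limma adjusted p = 0.904), and the interval reached from 0.71-fold to 1.31-fold. It turned to 0.20 without control 3.

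The type I receptor gene Tgfbr1 was the dimmest of the 10 on its probe set and the only one with a mean under that of the median gene. It was at 5.61, 5.92 and 6.01 in the control arrays and at 5.53, 5.83 and 5.65 in the TWEAK arrays, and the groups overlapped. Its difference of -0.18 (SE 0.13, limma adjusted p = 0.498) had an interval of 0.72-fold to 1.09-fold. For scale, the lower quartile of all probe sets was 4.65 to 4.73 in the 6 arrays.

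Tgfbr2, which encodes the ligand-binding type II receptor, was at 10.23, 10.23 and 10.26 in the control arrays and at 10.24, 10.06 and 10.38 in the TWEAK arrays. The control arrays were nearly identical (SD 0.02) and the TWEAK arrays lay on either side of them (SD 0.16). The Tgfbr2 difference was -0.01 (SE 0.10, limma adjusted p = 0.963), and the interval of 0.85-fold to 1.16-fold lay closer to 1 than the Tgfb1 change on both sides.

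Of the receptor-activated SMADs, Smad3 had the tightest values of all 10 genes. It was at 10.07, 10.07 and 10.09 in the control arrays and at 9.98, 9.98 and 10.03 in the TWEAK arrays. The TWEAK arrays were all below the control arrays, by a small step. The Smad3 difference was -0.08 (SE 0.07, limma adjusted p = 0.612), with an interval of 0.84-fold to 1.07-fold. Limma's SE for Smad3 borrows from all genes and is wider than these 6 values alone would give, since the SDs were 0.01 and 0.03. Groups of arrays that do not overlap were found in 26.4% of all genes, 12.9% higher and 13.5% lower under TWEAK, and in 3 of the 10 genes, Tgfb1 higher and Smad3 and Thbs1 lower.

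Smad2, the other receptor-activated SMAD, ranged widely in both groups. It was at 7.87, 8.39 and 8.36 in the control arrays and at 8.12, 8.46 and 7.86 in the TWEAK arrays. The groups covered almost the same range, and the Smad2 difference was -0.06 (SE 0.19, limma adjusted p = 0.901, interval 0.71-fold to 1.29-fold).

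Smad4, the partner shared by TGF-beta and bone morphogenetic protein (BMP) signals, was at 10.40, 10.52 and 10.51 in the control arrays and at 10.47, 10.38 and 10.17 in the TWEAK arrays. TWEAK 3 was the lowest of the 6, and TWEAK 1 lay within the control range. The Smad4 difference was -0.14 (SE 0.10, limma adjusted p = 0.492, interval 0.77-fold to 1.07-fold).

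The inhibitory SMAD gene Smad7, itself a target of the pathway, was at 7.84, 7.43 and 7.87 in the control arrays and at 7.96, 7.42 and 8.40 in the TWEAK arrays. TWEAK 3 was the highest array and TWEAK 2 the lowest of all 6, so that the TWEAK SD of 0.49 exceeded that of 99.1% of genes. The Smad7 difference of 0.21 (SE 0.23, limma adjusted p = 0.670) had an interval of 0.80-fold to 1.68-fold, wide enough to hold a rise as large as that of Tgfb1. It was -0.02 without TWEAK 3 and 0.46 without TWEAK 2.

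**Figure D2:**
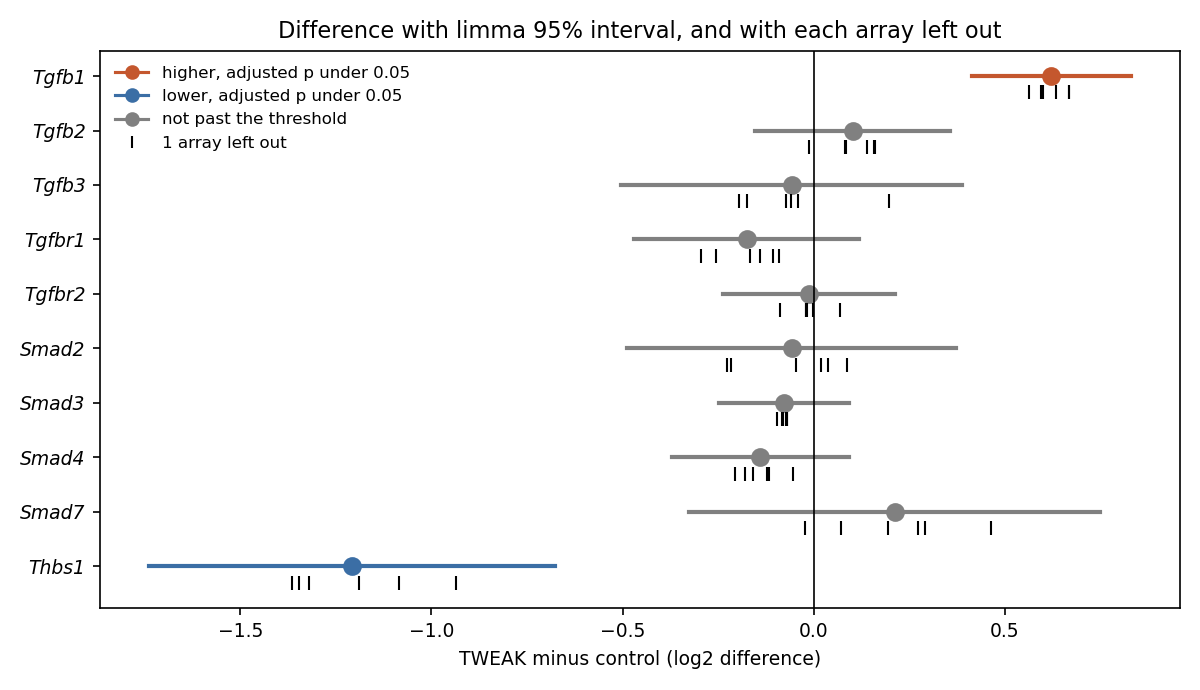
TWEAK minus control difference in log2 expression for the 10 genes (dots) with limma's 95% intervals (lines); black ticks give the difference with each of the 6 arrays left out in turn. The Tgfb1 and Thbs1 intervals lie wholly to the right and left of 0, and the other 8 cross it.

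Thrombospondin-1 (Thbs1) releases TGF-beta from its latent complex and also inhibits angiogenesis. Its values were 9.94, 10.03 and 10.80 in the control arrays and 9.02, 8.81 and 9.33 in the TWEAK arrays. Control 3 was far above the other controls, and the highest TWEAK array was still below the lowest control array. Thbs1 fell by 1.21 on the log2 scale (SE 0.23), which makes it 2.31-fold lower with a 95% interval of 1.60 to 3.34, at an adjusted p of 0.0409 in limma. Ordered from the largest negative difference up, it stood at position 27 of 22061 genes. The Thbs1 control SD of 0.47 was larger than that of 98.4% of genes. Without control 3 the fall was -0.94 and its adjusted p 0.0666 in limma. The authors' deposited table gives Thbs1 a ratio of 0.422 and a false discovery rate of 0.0700, so that the call depends on whether limma is fitted to genes or to all probe sets. The unadjusted limma p of Thbs1 also differed, at 0.000759 in the fit to genes and 0.00132 in the fit to all probe sets. As in any bulk sample, fewer cells of a type and less RNA per cell cannot be told apart here.

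Both calls depended on single arrays. With all 6 arrays 2 of the 10 genes passed, and the same 2 when control 1 was dropped. Dropping TWEAK 2 left 1 (Tgfb1), and dropping any 1 of control 2, control 3, TWEAK 1 and TWEAK 3 left 0. Over all genes limma then called 8.50% (control 1 dropped), 0.0725% (control 2), 0.286% (control 3), 0.00453% (TWEAK 1), 0.993% (TWEAK 2) and 0.172% (TWEAK 3). The adjusted p of Tgfb1 ranged from 0.0167 to 0.111 and that of Thbs1 from 0.0203 to 0.129 in these fits. The sizes moved less. The Tgfb1 difference stayed between 0.56 and 0.67, and that of Thbs1 between -1.37 and -0.94. At an unadjusted p under 0.05 in limma, which 21.3% of all genes reached with all arrays, 2 or 3 of the 10 genes passed with any 1 array left out.

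**Figure D3:**
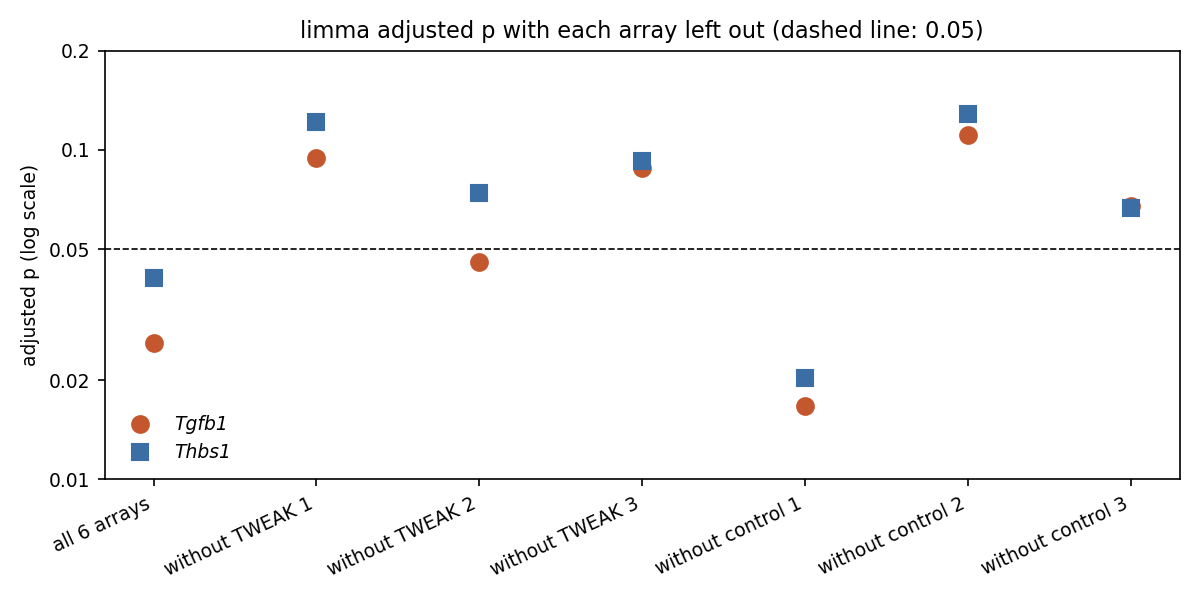
Limma's Benjamini-Hochberg adjusted p (log axis) of Tgfb1 and Thbs1 with all 6 arrays and with each array left out, the dashed line marking 0.05. Both lie under the line with all arrays and when control 1 is dropped, and both lie above it when control 2, control 3, TWEAK 1 or TWEAK 3 is dropped.

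Whether related genes changed unequally was asked with ratios on the same array. Tgfb2 minus Tgfb1 was -1.78, -1.60 and -1.57 in the control arrays and -1.99, -2.19 and -2.34 in the TWEAK arrays, with no overlap. The shift of -0.52 had an exact permutation p of 0.1, two-sided, the smallest that 3 against 3 arrays allow, and 0.3 after adjustment over the 3 ratios tested. Tgfbr1 minus Tgfbr2 shifted by -0.16 and Smad7 minus Smad3 by 0.29, each with overlapping groups, an exact permutation p of 0.4 and an adjusted p of 0.4.

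The genes most like each of the 10 were taken as those with the highest Pearson r over the 6 arrays among 11021 genes brighter than the median gene. These r describe 6 arrays that share cell line, treatment groups and normalisation, and nothing is read from their size. Tgfb1 was closest to Upf1, a helicase of nonsense-mediated decay (r = 0.9994), and to the transporter gene Slc22a15 (r = 0.9973), and 356 genes had an r over 0.95 with it. Thbs1 was closest to the RNA-binding protein gene Celf2 (r = 0.9976) and the deubiquitinase gene Mindy3 (r = 0.9964), with 180 genes over 0.95. Tgfb2 and Tgfb3 had few such genes, 3 and 9, led by Gm4532 for Tgfb2 and by Abraxas1 and Hspe1 for Tgfb3. The closest genes were Hmgb1l and Ccdc167 for Tgfbr1, Zfp362 and Usp21 for Tgfbr2, Nmi and Arhgap28 for Smad2, Evc and Spry1 for Smad3, Atf1 and Gatad2b for Smad4, and Speg and Abca2 for Smad7, with r from 0.9891 to 0.9961. With any 1 array left out the lowest r was 0.9992 for Upf1 with Tgfb1 and 0.9945 for Celf2 with Thbs1, against 0.8769 for Gm4532 with Tgfb2.

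The rest of the pathway was described through 8 lists holding 151 genes, 150 of them measured. Of these 150, 6 passed limma's test over all genes, 4 higher and 2 lower, beside 3.00% of all genes. The 6 became 18 when control 1 was dropped, 2 when TWEAK 2 was dropped and 0 when any other array was. In those last 4 fits 29 to 38 of the 150 had an unadjusted p under 0.05 in limma. With all arrays 21.3% of all genes reached that level. The share over all genes in those 4 fits was not computed, so nothing is read from these counts. The median difference of the 150 was 0.02 (quartiles -0.25 and 0.12).

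The list of other superfamily ligands held 28 genes, among them Bmp1, which encodes a protease and not a ligand. Of these 28 genes 2 fell and 26 did not pass, with a median of 0.11. Bmp4, a BMP ligand of kidney development, was at 9.38 ± 0.23 without and 8.78 ± 0.08 with TWEAK (SD, n = 3) and fell by 0.60 (SE 0.12, limma adjusted p = 0.0468). The stress-induced ligand gene Gdf15 was at 9.77 ± 0.07 and 9.27 ± 0.10 and fell by 0.49 (SE 0.09, limma adjusted p = 0.0371). Bmp2 and Bmp6, at 0.23 (SE 0.08) and 0.49 (SE 0.20), had the next smallest p without passing. Bmp2 was dim, with means of 4.25 in control and 4.48 in TWEAK arrays, under the lower quartile of all probe sets (4.65 to 4.73). Bmp6 was at 9.04 and 9.53. Of this list 19 members were dimmer than the median gene, and the genes dimmer than the median gene had a median difference of 0.05.

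Among 19 genes of storage and activation of latent TGF-beta 1 rose and 18 did not pass (median -0.01). The gelatinase gene Mmp9, whose product can cleave the latent complex, rose by 1.07 (SE 0.22, limma adjusted p = 0.0469), from 5.62 ± 0.17 to 6.69 ± 0.49. The TWEAK values of Mmp9 are spread, and its control values lie below the median gene. The integrin subunit genes Itgb1, Itgb8 and Itgb5, whose products bind matrix or latent TGF-beta, differed by -0.87 (SE 0.29), -0.49 (SE 0.17) and -0.22 (SE 0.09) without passing. For Itgb1 a dimmer probe set had the opposite sign.

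None of 13 measured other receptors and co-receptors and none of 14 extracellular inhibitors passed limma's test, with 4 and 3 lower and 0 higher at an unadjusted p under 0.05, which 8.15% of all genes reached upward and 13.1% downward. Tgfbr3 (betaglycan), the co-receptor that presents TGF-beta2, differed by -0.49 (SE 0.12, limma adjusted p = 0.0622), and the BMP receptor genes Bmpr1a and Bmpr2 by -0.89 (SE 0.32) and -0.71 (SE 0.24). The activin receptor gene Acvr1b differed by -0.38 (SE 0.14). Twsg1, a BMP-binding protein gene, differed by -0.69 (SE 0.17), the BMP antagonist gene Chrdl1 by -0.55 (SE 0.25), and the activin-binding follistatin genes Fstl3 and Fst by -0.36 (SE 0.11) and -0.25 (SE 0.09).

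Among 24 other SMADs and SMAD partners 1 rose, 0 fell and 23 did not pass (median -0.27). The ubiquitin ligase gene Smurf1, whose product works with Smad7 to remove the receptors, was at 9.68, 9.72 and 9.74 in the control arrays and at 10.22, 10.25 and 10.30 in the TWEAK arrays. The Smurf1 groups were far apart for their spread, and Smurf1 rose by 0.54 (SE 0.08, limma adjusted p = 0.0246), which is 1.45-fold. The related ligase genes Smurf2 and Wwp1 had negative differences, of -0.86 (SE 0.24, limma adjusted p = 0.0873) and -0.53 (SE 0.13, limma adjusted p = 0.0623), and Smad6, which encodes the inhibitory SMAD of BMP signalling, differed by -0.34 (SE 0.09, limma adjusted p = 0.0714).

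At an unadjusted p under 0.05, 13 of these 24 genes were lower (54.2%) and 2 higher. Of 15 genes of SMAD-independent signalling 7 were lower by that measure (46.7%), 0 higher and 0 past limma's test over all genes (median -0.36), beside 13.1% lower among all genes and 22.1% among genes brighter than the median gene. Its smallest p belonged to the kinase genes Rock2 (-1.16, SE 0.28), Rock1 (-0.74, SE 0.25) and Map3k7 (TAK1, -0.64, SE 0.23) and to the TAK1 adaptor gene Tab3 (-0.46, SE 0.16). The control arrays were themselves spread along this direction. Control 3 lay above control 1 for 18 of the 24 SMAD genes and partners and for 11 of the 15 SMAD-independent genes. It did so for 9 of the 10 genes described first, all but Tgfb1. The shares were 37.9% of all genes and 47.7% of genes brighter than the median gene. The part of this spread in the differences was not tested.

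Among 35 TGF-beta target genes 2 rose, 0 fell and 33 did not pass limma's test (median 0.01). Before adjustment 4 of them had a p under 0.05 upward and 5 downward. The AP-1 subunit gene Junb rose by 0.72 (SE 0.14, limma adjusted p = 0.0438). Id2 and Id3, which encode inhibitors of differentiation and respond to BMP as well as TGF-beta, differed by -0.54 (SE 0.14, limma adjusted p = 0.0772) and -0.57 (SE 0.16, limma adjusted p = 0.0800). Id1, named after its values were seen, differed by -0.45 (SE 0.13, limma adjusted p = 0.0873), and the TWEAK arrays lay below all control arrays for each of the 3 Id genes. Over the whole target list, 4 of 35 genes had TWEAK arrays below all control arrays and 4 above, shares close to those of all genes (13.5% and 12.9%).

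Further targets were named after their values were seen, because they are the usual fibrosis readouts. The collagen genes Col1a1 and Col3a1 differed by 0.04 (SE 0.10) and 0.06 (SE 0.13), the fibronectin gene Fn1 by -0.01 (SE 0.08), and the matricellular gene Ccn2 (connective tissue growth factor) by -0.27 (SE 0.18). The smooth muscle actin gene Acta2 differed by 0.28 (SE 0.22), and none of these 5 passed limma's test. The Fn1 interval was 0.88-fold to 1.13-fold and that of Col1a1 was 0.88-fold to 1.20-fold.

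Of 8 other thrombospondin genes and thrombospondin receptor genes none passed limma's test (median 0.12), and 1 was higher at an unadjusted p under 0.05. That was Cd47, which encodes a receptor of thrombospondin-1 and differed by 0.52 (SE 0.15, limma adjusted p = 0.0913). The cartilage thrombospondin gene Comp, Thbs4 and the integrin subunit gene Itgav followed, at 0.21 (SE 0.13), 0.21 (SE 0.13) and -0.22 (SE 0.17).

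**Figure D4:**
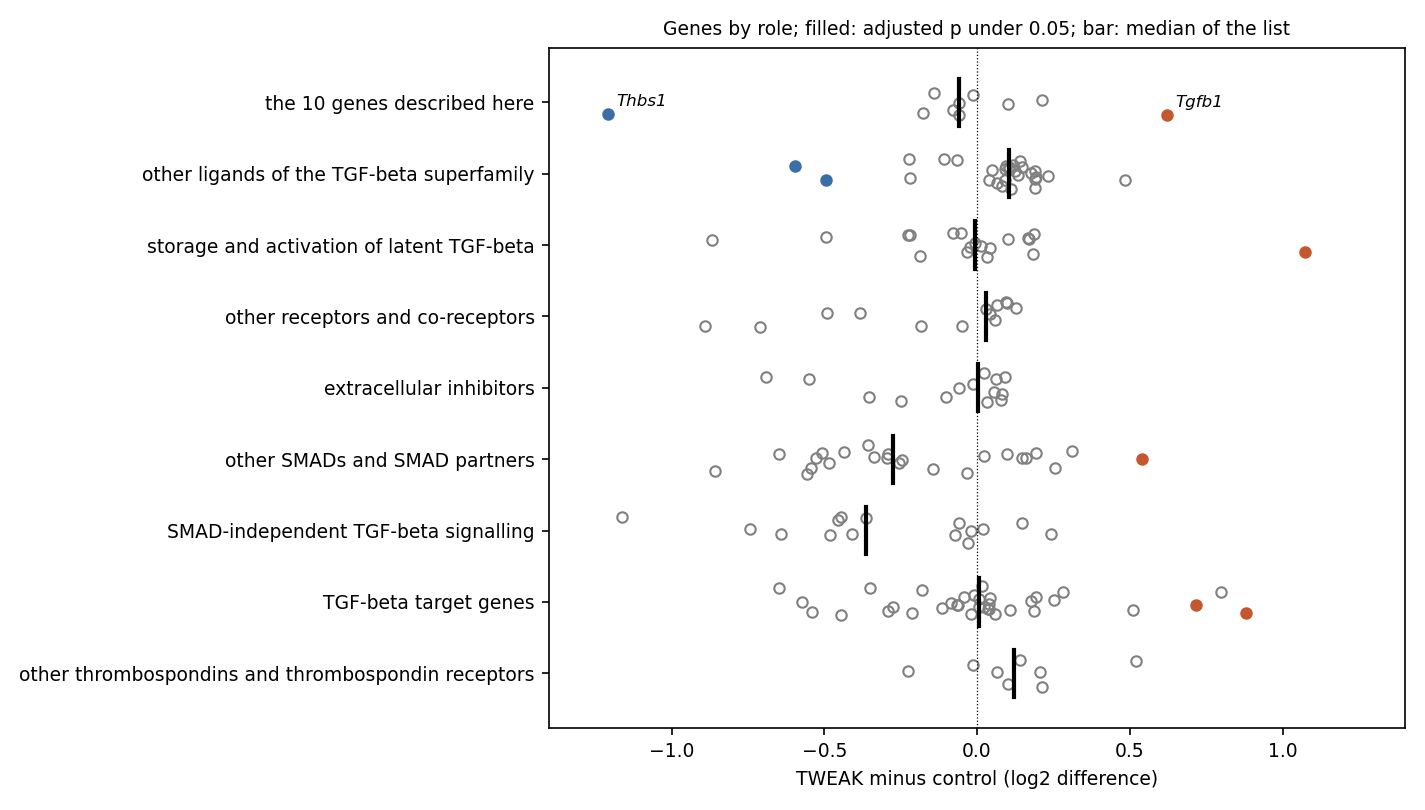
TWEAK minus control difference in log2 expression for the 10 genes and for the measured members of 8 pathway lists, 1 dot a gene, with genes past limma's threshold filled (named for the 10) and a black bar at each list's median. The medians of SMAD partners (-0.27) and SMAD-independent genes (-0.36) lie left of 0 although 1 rising gene and 0 genes, in that order, passed the test.

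As to the arrays, correlations across genes were 0.980 to 0.996 and the median log2 value was 6.12 to 6.18. Of 12 proximal tubule markers 6 were dimmer than the median gene. Lrp2 (megalin) was at 8.51 to 9.05 and Cdh16 at 10.16 to 10.44 in control cells, whereas Slc34a1 was at 6.07 to 6.21, Anpep at 4.99 to 5.17 and the epithelial cadherin gene Cdh1 at 5.64 to 5.76, so that several defining markers of the labelled cell type were below the median gene. Limma called 0 of the 12 proximal tubule markers (3 at an unadjusted p under 0.05) and 1 of 8 general epithelial markers, the claudin gene Cldn1, which rose (adjusted p = 0.00582). Leukocyte markers were dimmer than the median gene for 8 of 9, endothelial ones for 5 of 7 and fibroblast ones for 5 of 8, and limma called none of the 24 (2, both endothelial, at an unadjusted p under 0.05). For all these marker counts, the shares over all genes were 3.00% called by limma and 21.3% at an unadjusted p under 0.05. No list had a marker at 0, since RMA values have no zero. The summed unlogged level of the endothelial list was 393 to 425 in control and 454 to 545 in TWEAK arrays, led by Flt1, with the defining markers Emcn at 3.86 to 4.06 and Cdh5 at 5.26 to 5.63 over all arrays. That of the fibroblast list was 516 to 577 and 591 to 598. Its brightest gene was Col1a1 (difference 0.04), and its largest difference was that of Acta2 (0.28, SE 0.22). Acta2 and Col3a1 also lay above the median gene, whereas Lum was at 3.35 to 3.61 and Dcn at 4.10 to 4.28. The leukocyte sums overlapped, at 404 to 449 and 410 to 468. The part of these shifts in the results on Tgfb1 and Thbs1 was not tested.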

How the data were processed

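Per the labels' protocols, Trizol-extracted RNA of 6 MCT cultures was labelled with a GeneChip WT PLUS kit. The authors deposited log2 expression per probe set, which the submitters' processing notes credit to RMA and Affymetrix Expression Console; for these, no version or build is given in the sources used here. RMA makes arrays alike, so a shift of most transcripts would not be seen. Their deposited ratio equals unlogged TWEAK over unlogged control means, and their deposited p-value equals that of limma on all 28361 probe sets (log10 values differ by at most 8.17e-14). Symbols of other genes were updated with RefSeq GRCm38.p6 (names only), and the brightest probe set stood for each of 22061 genes. Differences were tested with limma 3.58.1 in R 4.3.3 (lmFit, eBayes, no block, Benjamini-Hochberg over all genes). Its p-values set each difference against the spread between these cultures, moderated with that of all genes. The 3 arrays a group limit the precision. Python 3.11.15 made tables and figures. On simulated data for TWEAK against control with 22061 genes, 95 of 100 changes of 1 log2 unit and 100 of 100 of 2 were recovered, with 7 false calls. The simulated noise was independent between genes, with no variation shared by whole arrays. In the real arrays 1 axis held 43.4% of the within-group variation, so these rates need not hold for them.

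The 10 genes, the 8 pathway lists and the marker lists were chosen with earlier results of these data known. Named genes are the 10, list genes past the threshold, up to 4 per list with the smallest p, and the 2 most alike per gene; a gene of the target list and 1 of the most alike are not reported here. Ratios used exact permutation. Tried as alternatives were a replicate block, trend with robust moderation, brighter genes only, means of probe sets, probe sets 1 by 1, median centring, cyclic loess, array weights, the main within-group axis as covariate, and each array left out.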

Additional observations from a re-analysis of the deposited data

How the results depend on the processing

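With 3 arrays a group, single arrays decide the calls. Across fits that each left out 1 array, the count of the 10 genes past the threshold ranged from 0 to 2, that of the 150 other pathway genes from 0 to 18 (6 with all arrays), and the median difference of the 10 from -0.13 to 0.0087. With the replicate number as a block the counts were 1 (Thbs1, adjusted p = 0.0358 in limma, with Tgfb1 at 0.0555) and 0. Deviations of same-numbered control and TWEAK arrays correlated at 0.196, 0.359 and -0.0716, and those of differently numbered ones at -0.487 to 0.288. With 3 arrays a group these values do not decide whether the numbers pair the arrays. With each probe set tested 1 by 1, where limma was fitted over more features, the counts were 1 and 1, and after cyclic loess 1 and 2. Thbs1 was lost in both (adjusted p = 0.0700 and 0.0577 in limma), and the cause was not tested. Array weights gave 29 other pathway genes, and the main axis of within-group variation as covariate gave 25, the cause not tested. Over all genes the calls went from 661 to 207 with the block (0.938%), 267 after loess (1.21%), 103 of the same probe sets 1 by 1 (0.467%), 3223 with array weights (14.6%) and 2874 with the axis. Tgfb1 and Thbs1 passed the threshold in 10 and 8 of the 15 alternatives. Their direction was the same in all 15, which is no separate test. Several alternatives return the same difference by design, and with groups that do not overlap no single dropped array could turn its sign.

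Among genes that did not pass, signs turned. Tgfb3 was 0.12 with array weights and Tgfbr2 0.0069 with arrays centred on their medians. With 1 array left out, Tgfb2 ranged from -0.013 to 0.16, Tgfb3 from -0.20 to 0.20, Tgfbr2 from -0.089 to 0.070, Smad2 from -0.23 to 0.088 and Smad7 from -0.024 to 0.46. The causes were not tested. The 33 other pathway genes followed here, all named for their p except Id1, kept their direction throughout. The choice by p, or for Id1 after its values were seen, favours this. Several of the fits also return the same difference by design, so it is no separate test. Of the fibrosis readouts, Col1a1, Col3a1, Fn1 and Acta2 kept their sign in 14, 13, 13 and 14 of the 15 alternatives, and Ccn2 in all 15. Tgfbr1 could not be tested among genes brighter than the median gene.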
